A study of Mus musculus with 20 samples.

Results

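The effect of HuD on steady-state RNA was measured by RNA-Seq of total RNA from NSC-34 cells, a hybrid line of mouse neuroblastoma and motor neuron-enriched spinal cord cells. The comparison set the 2 libraries of HuD induced cells against the 2 libraries of control cells, out of 20 libraries in the series, and covered all genes with enough counts, which were 14906 of the 14924 listed. NSC-34 cells had first been transduced with a lentiviral Tet repressor (Trex cells) and then with a lentiviral vector for His-HA tagged human HuD. Whether the RNA-Seq control cells carried the Tet repressor or a vector, and whether the HuD line was a pool or a clone, is not given in the sources used here. By the labels, tetracycline at 2 μg/ml was given for 48 h to induce HuD, while the methods of the study list doxycycline. Whether the RNA-Seq control cells received the drug is not given in the sources used here, so drug and HuD cannot be told apart. The design text calls all of these samples biological duplicates. Total RNA was taken from sucrose gradient fractions of cytoplasmic lysates of cycloheximide-treated cells, and libraries were made from polyadenylated RNA.

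HuD (ELAVL4) is a neuronal member of the ELAV family of RNA binding proteins, together with HuB (ELAVL2), HuC (ELAVL3) and the ubiquitous HuR (ELAVL1). These proteins recognise U-rich and AU-rich stretches, mostly in 3′UTRs, and are known for stabilising mRNAs, for promoting their translation and for a role in neuronal differentiation. The total RNA of a gene therefore reflects transcription and decay together, and the 2 were not separated here.

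Total counts were between 29041469 and 35836234 per library, and every listed gene had at least 1 count in each of the 4 libraries. Levels are given as CPM, counts scaled to library size and TMM factor, in the order replicate 1, replicate 2. The cells expressed the motor neuron-like marker *Prph* (peripherin) at 1159.8 to 1355 CPM and *Isl1*, a motor neuron transcription factor, at 34.7 to 43 CPM. *Slc18a3*, the vesicular acetylcholine transporter, stayed at 7.01 to 8.4 CPM, and *Chat*, which makes acetylcholine, at 0.449 to 0.544 CPM. Of 19 listed genes of motor neuron and cholinergic identity, 16 were tested. The motor neuron marker *Mnx1* (HB9), *Slc5a7* and *Calca* had no entry in the deposited counts, from which the authors had left genes out. Of 17 glial, 12 immune and 13 endothelial or fibroblast markers, 8, 3 and 4 had enough counts to be tested. Their summed levels over the 4 libraries were 79.3 to 83.8, 10.2 to 12.2 and 18.7 to 21.4 CPM, with both HuD libraries just above the controls for glial markers, just below them for immune markers and overlapping them for the last list. The part of these cell types in the results was not tested. Of these markers *Cnp*, of myelin-forming cells, was lower and *Pdgfrb*, of pericytes and fibroblasts, higher by the unadjusted rule used below. One HuD library stood apart in noncoding RNA, as described with its values at the end.

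*Elavl4* (ENSMUSG00000028546, chr4:110203722-110351909 on GRCm38, minus strand) was the gene with the smallest p-value in the comparison. It was at 78.2 and 97.4 CPM in the control libraries and at 237 and 212 CPM in the HuD libraries, which do not overlap. The fold change was 2.55, a log2 change of 1.35 (SE 0.15, unadjusted p = 5.81e-06), and the adjusted p was 0.0866 (edgeR's quasi-likelihood test, Benjamini-Hochberg). Reads from the human coding sequence of the transgene and from the mouse gene could not be told apart in this count. *Elavl4* was also 1 of 3 genes with a mean of at least 10 CPM that both passed an unadjusted p of 0.05 and differed at least 2-fold, and the remaining pair, *Malat1* and *mt-Nd6*, was high in a single HuD library.

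None of the other ELAV mRNAs passed the unadjusted threshold. *Elavl3* was at 141 and 158 CPM in control and 135 and 135 CPM in HuD, a log2 change of -0.15 (SE 0.088, unadjusted p = 0.122). Its groups did not overlap, with HuD the lower pair. *Elavl1* was at 241 and 271 CPM in control and 247 and 243 CPM in HuD, and *Elavl2* at 24.2 and 26.8 CPM in control and 27.5 and 24.1 CPM in HuD, and in both the groups overlapped. Per kilobase of exon, the control level of *Elavl4* was 16.3 RPKM, below *Elavl1* at 24.7 RPKM and *Elavl3* at 21.7 RPKM and above *Elavl2* at 3.06 RPKM. In HuD cells *Elavl4* was the highest of the 4, at 41.6 RPKM. The exon length used is that of the mouse gene, while these counts can hold reads of the human coding sequence. This rank in HuD cells is thus not a like comparison.

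**Figure D1:**
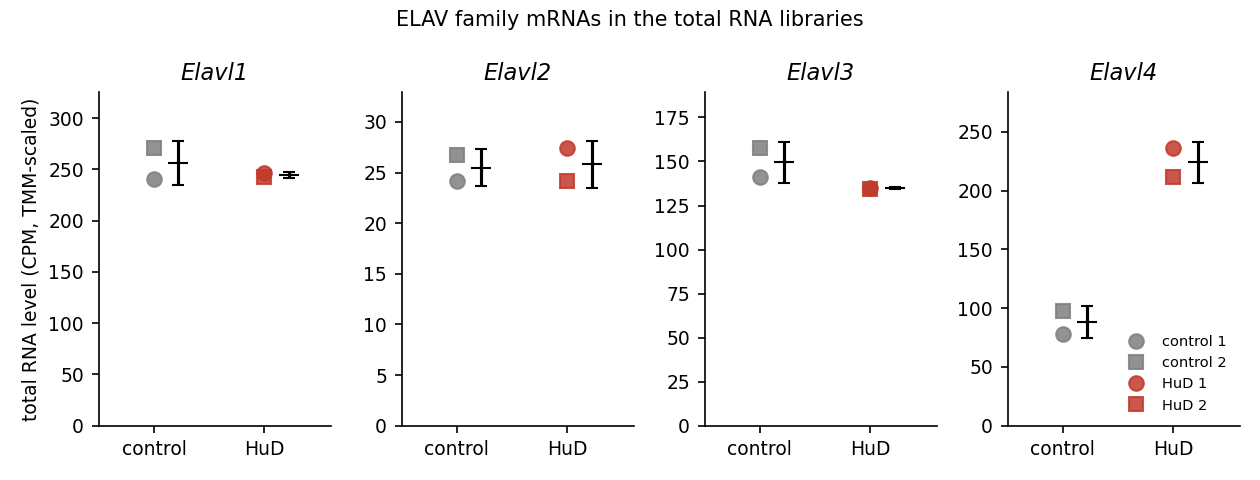
Levels of the 4 ELAV family mRNAs (CPM, linear axes from 0) in each control and HuD total RNA library, with the group mean and SD (n = 2) beside the points. Only the *Elavl4* panel shows HuD libraries (212 and 237 CPM) far above control libraries (78.2 and 97.4 CPM).

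No gene passed adjustment at 0.05 in edgeR's quasi-likelihood fit of the 8 total and polysomal libraries. At an unadjusted p under 0.05, 265 genes were higher in HuD cells (1.78% of 14906) and 129 were lower (0.865%). In this fit, which holds no replicate block, these 394 genes are 2.64% of the genes tested, below the 5% that such a threshold passes when nothing changes. For the 14905 genes other than *Elavl4* the adjusted p was 1.00, so every other gene named below as higher or lower had passed the unadjusted threshold and not the adjusted one. In other fits 1 gene passed adjustment with edgeR's likelihood ratio test and 1 with the 4 total RNA libraries alone. DESeq2 called 120 higher (0.805%) and 55 lower genes (0.369%) by the unadjusted rule and 1 gene (0.00671%) after adjustment.

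The sizes of these differences were small. The 265 higher genes had a median level of 2.99 CPM and a median log2 change of 0.57, and 84 of them were below 1 CPM. The 129 lower genes were more abundant, with a median of 42.8 CPM, and their median log2 change was -0.26. At a mean of at least 10 CPM, 95 genes were higher and 100 lower. With the replicate number added to the fit as a block, 533 genes were higher (3.58%) and 385 lower (2.58%), still with none past adjustment. Together these 918 genes are 6.16% of those tested, above the 5% of the same threshold. They held 263 of the 265 and 128 of the 129 genes.

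A fit to the 4 total RNA libraries alone with the same block gave 127 genes (0.857%) past adjustment, of which 100 were higher (0.675%) and 27 lower (0.182%). Of these 127 genes, 26 had overlapping groups and 12 had opposite signs in replicate 1 and replicate 2, so this count is given without further use. Without the library HuD replicate 1, 198 genes were higher (1.33%) and 68 lower (0.456%), which included 105 of the 265 and 30 of the 129.

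**Figure D2:**
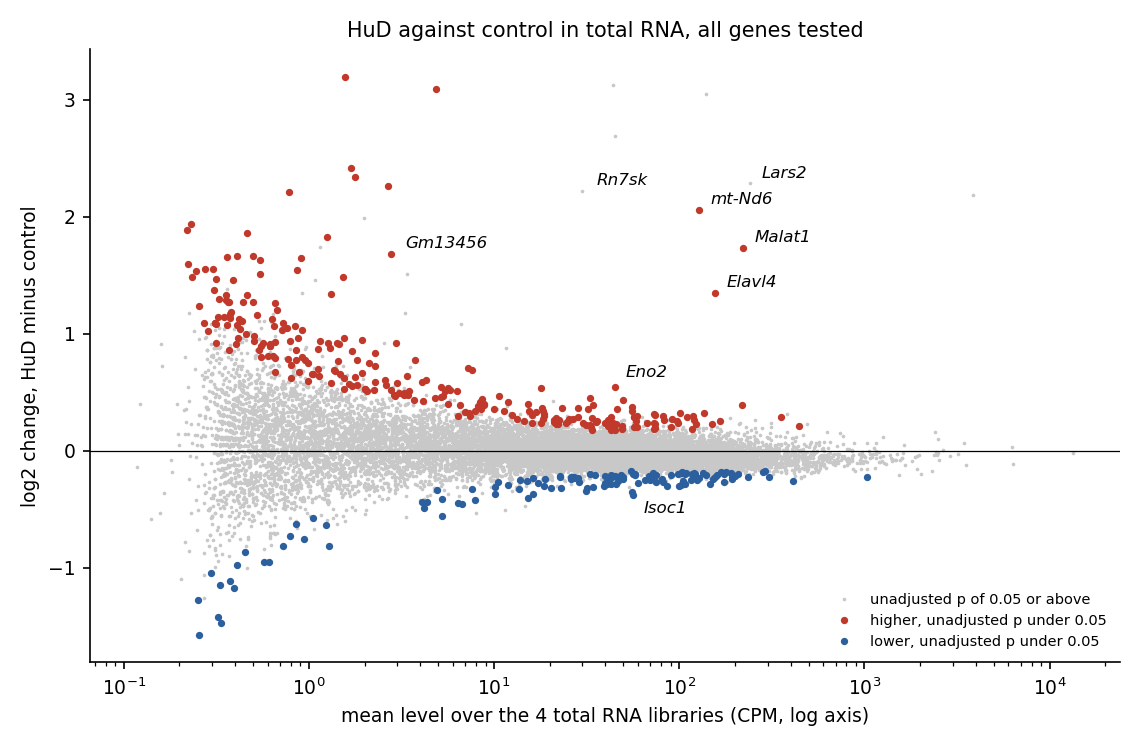
Each point is 1 of the 14906 genes tested, with its mean level over the 4 total RNA libraries (CPM, log axis) and its log2 change, HuD minus control. Red and blue points had an unadjusted p under 0.05 (265 higher, 129 lower). *Elavl4* lies at 1.35, while *Malat1*, *mt-Nd6*, *Lars2* and *Rn7sk* above it were high in a single HuD library.

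The 12 genes with the smallest p-values among those higher and those lower, at 1 CPM or more and with groups that do not overlap, are described first. Of the higher genes, *Eno2* and *Mapt* are known as neuronal. *Eno2*, the neuron-specific enolase of glycolysis, was at 34.7 and 38.2 CPM in control and 50.0 and 56.6 CPM in HuD, a log2 change of 0.55 (SE 0.11, unadjusted p = 0.000547). *Mapt*, which encodes the microtubule protein tau, was at 65.3 and 66.4 CPM in control and 79.1 and 83.6 CPM in HuD, a log2 change of 0.30 (SE 0.081, unadjusted p = 0.00419). *Trim66*, a chromatin-binding bromodomain protein, was at 40.4 and 44.5 CPM in control and 57.8 and 56.8 CPM in HuD, a log2 change of 0.43 (SE 0.083, unadjusted p = 0.000517). In all 3 genes both HuD libraries lay above both control libraries. *Extl1*, an exostosin-like glycosyltransferase, was at 30.5 and 28.6 CPM in control and 38.4 and 39 CPM in HuD (log2 change 0.39, SE 0.085, unadjusted p = 0.00126). *Atp2a3*, a calcium pump of the endoplasmic reticulum, was at 9.63 and 10.7 CPM in control and 13.2 and 14 CPM in HuD (log2 change 0.42, SE 0.11, unadjusted p = 0.00465). *Stc2* (stanniocalcin 2, a secreted glycoprotein), *Zfp446* and the cochaperone gene *Cdc37l1* had log2 changes of 0.35, 0.40 and 0.34. The rest of the 12 with the smallest p-values were low, the pseudogene *Gm13456*, the lincRNA *A430105J06Rik* and *Catsperg1*, all under 10 CPM in every library.

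The lower genes are known for varied roles. *Isoc1*, an isochorismatase domain protein, was at 61.1 and 65.5 CPM in control and 48.2 and 49.6 CPM in HuD, a log2 change of -0.37 (SE 0.077, unadjusted p = 0.000814). *Rell1*, a relative of the TNF receptor RELT, was at 61.5 and 63 CPM in control and 48.2 and 49.4 CPM in HuD, a log2 change of -0.35 (SE 0.086, unadjusted p = 0.00258). *Lrrn4*, a leucine-rich repeat membrane protein, was at 33.4 and 36.7 CPM in control and 28.3 and 27 CPM in HuD, a log2 change of -0.34 (SE 0.092, unadjusted p = 0.00447). The libraries of the 2 groups were separate in each of these. *Skp2*, the F-box protein that marks cell cycle inhibitors for degradation, was at 49.1 and 53.1 CPM in control and 43.2 and 42.3 CPM in HuD (log2 change -0.26, SE 0.078, unadjusted p = 0.00867). *Bak1*, a pro-apoptotic membrane protein, *Dbi*, which binds acyl-CoA, *Lrba*, *Msrb3*, *Runx3* and *2810417H13Rik*, the PCNA-associated factor, had log2 changes between -0.37 and -0.25. The remaining 2 of the 12 were *Creld2*, given with the stress genes, and *Gm8909*, whose log2 change was -0.56. By size, *Tead2*, a transcription factor of the Hippo pathway, had the most negative log2 change among called genes of 10 CPM or more whose groups do not overlap, at 19.3 and 15.4 CPM in control and 14.2 and 12 CPM in HuD (log2 change -0.40, SE 0.17, unadjusted p = 0.0408), and *Cnn2* (calponin 2) had -0.37. The highest values at that level among called genes whose groups do not overlap, after *Elavl4* and *Eno2*, were *Lcor*, a nuclear receptor corepressor, *Cnga3*, a cyclic nucleotide-gated channel, and the nuclear lincRNA *Neat1*, with log2 changes of 0.54, 0.47 and 0.45.

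The integrated stress response is the pathway by which cells short of amino acids or with misfolded protein phosphorylate the initiation factor eIF2 and so raise translation of ATF4, a transcription factor that switches on genes for amino acid synthesis and import. The unfolded protein response shares this arm and adds an arm that makes chaperones of the endoplasmic reticulum. Of 46 genes tested in a joint list of both, 7 were higher and 1 was lower, against 1.78% and 0.865% of all genes. The median log2 change was 0.146, against -0.004 for all genes. With the replicate block 18 were higher and 2 lower, against 3.58% and 2.58% of all genes.

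The list divided by the role of its members, a division made after the values were seen and given without a test. In the arm of ATF4 and amino acid genes, all 27 genes tested had a log2 change above 0, against 48.7% of all genes, from 0.07 to 0.40 with a median of 0.206. In 22 of the 27 both HuD libraries lay above both controls, against 15.2% of all genes, and all 27 were above 0 in both replicate 1 and replicate 2. The medians within the replicates were 0.193 and 0.254, and without the library HuD replicate 1 the median was 0.232 with 6 genes called. Those called were 6 (1.78% of all genes), and 17 with the replicate block (3.58% of all genes). Summed over the 27 genes, the level was 4442 and 4556 CPM in control and 4873 and 5191 CPM in HuD libraries.

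The 6 called members act at different points of the pathway. *Trib3*, a pseudokinase that feeds back on ATF4, was at 50.1 and 47.2 CPM in control and 59.1 and 67.3 CPM in HuD, a log2 change of 0.38 (SE 0.12, unadjusted p = 0.0102). *Nupr1*, a stress-induced nuclear protein, was at 96.2 and 82.7 CPM in control and 110.0 and 113 CPM in HuD, a log2 change of 0.32 (SE 0.11, unadjusted p = 0.0179). *Sesn2*, a sestrin that restrains mTORC1, was at 36.9 and 40.4 CPM in control and 43.1 and 51.1 CPM in HuD, a log2 change of 0.29 (SE 0.11, unadjusted p = 0.0304). For each of these the HuD libraries were the higher pair. *Cth*, which makes cysteine by transsulfuration, was at 39.1 and 39.2 CPM in control and 45.3 and 44.9 CPM in HuD (log2 change 0.21, SE 0.076, unadjusted p = 0.0239). *Pck2*, the mitochondrial phosphoenolpyruvate carboxykinase, was at 65.9 and 57.3 CPM in control and 69.8 and 75.6 CPM in HuD (log2 change 0.24, SE 0.10, unadjusted p = 0.0392), and *Atf3*, a transcription factor induced downstream, at 11.6 and 10.9 CPM in control and 14.4 and 13.4 CPM in HuD (log2 change 0.30, SE 0.13, unadjusted p = 0.0407). *Atf4* itself was at 749.8 and 652 CPM in control and 765 and 796 CPM in HuD, with a log2 change of 0.15 that did not pass (unadjusted p = 0.26). *Asns*, asparagine synthetase, had 0.23 (unadjusted p = 0.0585) and *Ddit3*, which encodes CHOP, 0.27 (unadjusted p = 0.15).

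Genes outside the list that are also known in amino acid supply were among the 265 higher genes, and these were picked after their values were seen. *Gpt2*, the mitochondrial alanine transaminase, was at 77.1 and 73.2 CPM in control and 85.9 and 94.7 CPM in HuD, a log2 change of 0.26 (SE 0.089, unadjusted p = 0.0156). *Slc1a4*, a transporter of alanine, serine and cysteine, was at 76.7 and 88 CPM in control and 91.7 and 107 CPM in HuD, a log2 change of 0.27 (SE 0.12, unadjusted p = 0.0443). *Aldh1l2*, of mitochondrial folate metabolism, the GTP-binding protein gene *Gtpbp2* and the mitochondrial protease gene *Lonp1* had log2 changes of 0.25, 0.29 and 0.29. Of 35 aminoacyl-tRNA synthetases, which charge tRNAs, 3 were higher and 0 lower, against 1.78% and 0.865% of all genes, with a median of 0.026. They were the cytosolic enzymes *Cars* (109.8 and 108 CPM in control and 128 and 133 CPM in HuD), *Sars* (416 and 411 CPM in control and 481 and 476 CPM in HuD) and *Lars* (65.6 and 68.2 CPM in control and 74.4 and 83.2 CPM in HuD), with log2 changes of 0.26, 0.21 and 0.24. The mitochondrial *Lars2* was at 125 and 39.6 CPM in control and 766 and 35.9 CPM in HuD, high in a single library.

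The letters TGATGNAA, a composite site bound by ATF4 with a C/EBP partner, were searched on both strands of the RefSeq promoter windows (GRCm38.p6, 250 bases before to 50 after a start). They stood in a window of 2.72% of the 10383 tested genes with one, in 7.8% of 141 such genes that were higher and in 0 of 95 that were lower. In the ATF4 and amino acid arm 9 of 25 genes held them (36.0%), and in the endoplasmic reticulum arm 1 of 15 (6.67%). This motif was chosen after the values were seen, and a match is a description of the letters only. The 4 called members of the list that held it and *Slc1a4* are shown with the motif in capitals, 5′ to 3′ on the strand of the gene, because they set the shared letters beside a measured level. In all 5 the letters lie on the strand opposite to the gene, so the reverse complement is printed.
Atf3, chr1:191183425-191183454, minus strand: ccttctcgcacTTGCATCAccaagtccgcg
Nupr1, chr7:126625562-126625591, minus strand: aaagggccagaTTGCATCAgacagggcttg
Pck2, chr14:55540152-55540181, plus strand: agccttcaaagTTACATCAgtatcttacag
Trib3, chr2:152344028-152344057, minus strand: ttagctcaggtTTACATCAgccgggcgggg
Slc1a4, chr11:20332699-20332728, minus strand: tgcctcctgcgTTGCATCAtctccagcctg
Counted from the start site, the motif begins at -110 in *Atf3* and *Nupr1*, at -103 in *Pck2*, at 14 in *Trib3* and at -4 in *Slc1a4*. The remaining higher genes with the letters were *Cyb5r2*, *Gm16675*, *Hrk*, *Mdfic*, *Pdzd7* and *Sfn*.

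The arm of the endoplasmic reticulum had mostly negative values. Of its 19 genes, 15 were below 0, against 51.3% of all genes, with a median of -0.076. In each direction 1 gene was called, where 1.78% of all genes were higher and 0.865% lower. *Creld2*, a folding factor secreted under stress, was lower at 110.2 and 115 CPM in control and 91.6 and 92.8 CPM in HuD, a log2 change of -0.29 (SE 0.078, unadjusted p = 0.00462). *Ero1l*, the oxidase that renews disulphide bonds, was higher at 68.2 and 68 CPM in control and 83.2 and 76.7 CPM in HuD, a log2 change of 0.23 (SE 0.10, unadjusted p = 0.0399). *Hspa5*, the main chaperone (BiP), was at 631 and 769 CPM in control and 684 and 644 CPM in HuD, with overlapping groups. The disulphide isomerase genes *Pdia6* and *Pdia4* had log2 changes of -0.20 and -0.20 that did not pass.

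**Figure D3:**
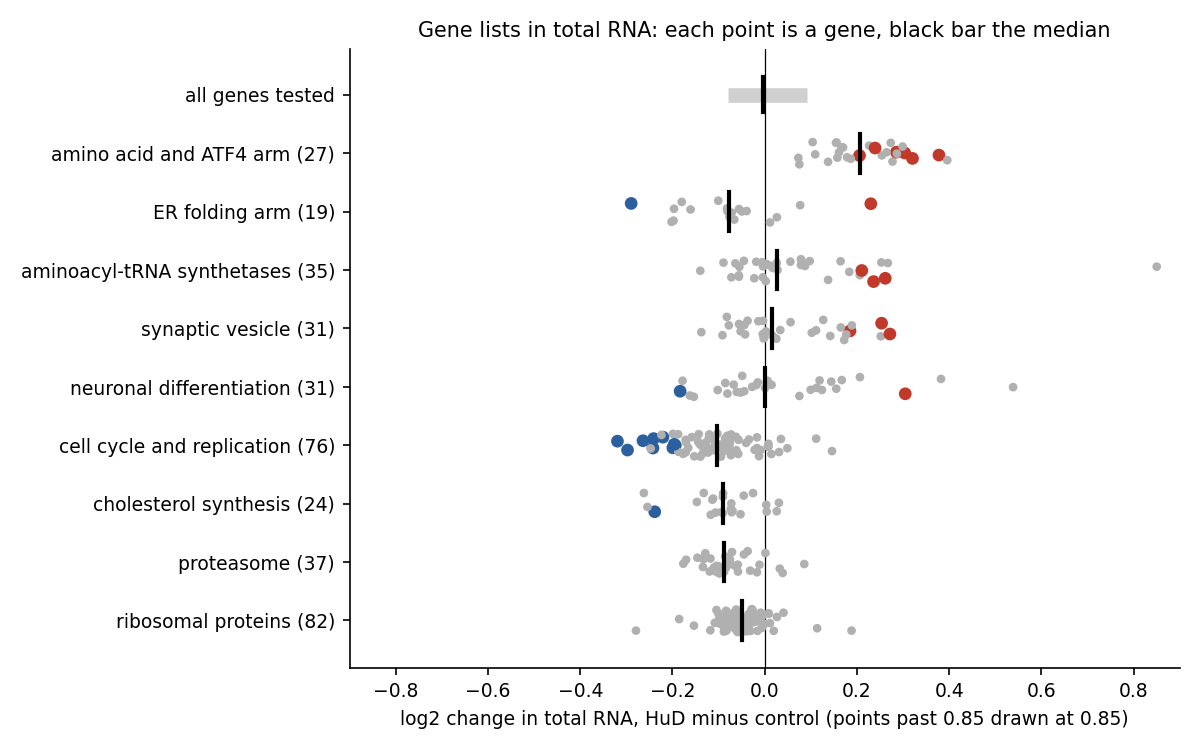
Log2 change in total RNA (HuD minus control) of the members of 9 gene lists, with the number tested in parentheses. Red and blue points had an unadjusted p under 0.05, black bars are medians and the grey bar is the interquartile range of all genes. All 27 genes of the ATF4 arm lie right of 0 and 67 of the 76 cell cycle genes left of it. *Lars2* is drawn at the edge.

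Genes of the cell cycle and DNA replication lay mostly below control. Of 76 tested, 9 were lower and 0 higher, against 0.865% and 1.78% of all genes, with 67 below 0, against 51.3% of all genes, and a median of -0.104. In 31 of the 76 both HuD libraries lay below both controls, against 16.7% of all genes. Fewer dividing cells and less of these mRNAs per cell cannot be told apart in bulk RNA. *Cdk4* and *Cdk2*, the kinases of the G1 and S phases, were at 1111 and 1124 CPM in control and 943 and 976 CPM in HuD (log2 change -0.22, SE 0.089, unadjusted p = 0.0343) and at 108 and 113 CPM in control and 84.1 and 95 CPM in HuD (log2 change -0.30, SE 0.10, unadjusted p = 0.0131). *Pcna*, the sliding clamp of DNA polymerase, was at 131 and 141 CPM in control and 114 and 116 CPM in HuD, a log2 change of -0.24 (SE 0.085, unadjusted p = 0.0182). *Gins2*, of the replicative helicase, was at 83.1 and 79.9 CPM in control and 65.5 and 70.3 CPM in HuD, a log2 change of -0.26 (SE 0.086, unadjusted p = 0.0128). In these 4 genes the control libraries were all above the HuD libraries.

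The most negative value of the list was that of *E2f8*, an E2F repressor of the cell cycle, at 31.2 and 39.1 CPM in control and 28.1 and 28.3 CPM in HuD (log2 change -0.32, SE 0.12, unadjusted p = 0.026). The helicase component *Cdc45*, the clamp loader *Rfc4*, the securin *Pttg1* and the cyclin *Ccnb2* had log2 changes of -0.20, -0.19, -0.20 and -0.24. The medians within replicate 1 and within replicate 2 were -0.061 and -0.153, and 51 of 76 genes were below 0 in both. With the replicate block 14 were lower, against 2.58% of all genes, and without the library HuD replicate 1 only 1 (*Ccnb2*) was, with a median of -0.080. An E2F site (TTTCCCGC, TTTCGCGC, TTTGCCGC or TTTGGCGC, both strands) stood in a promoter window of 18 of 61 list members (29.5%) against 4.66% of all genes. Of the 8 lower members with a window, 1 (*Cdk2*) held it.

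Few genes of the neuronal lists passed the unadjusted threshold. In the list of neuronal differentiation and neurite growth (31 tested), *Mapt* was higher and *Nefl*, the light neurofilament, lower at 177 and 181 CPM in control and 159 and 156 CPM in HuD (log2 change -0.18, SE 0.077, unadjusted p = 0.0409). The median was 0.001. *Nefm*, *Nefh*, *Map2* and *Tubb3* had log2 changes of -0.044, -0.018, 0.075 and -0.061, and none passed. Among 31 genes of synaptic vesicles and release, 3 were higher and 0 lower, against 1.78% and 0.865% of all genes, and without the library HuD replicate 1 the count was 0. *Sv2a*, a vesicle glycoprotein, was at 21.7 and 24.1 CPM in control and 27.7 and 27.6 CPM in HuD, a log2 change of 0.27 (SE 0.10, unadjusted p = 0.023). *Rab3a*, the vesicle GTPase, was at 22.4 and 23.3 CPM in control and 27.9 and 26.6 CPM in HuD, a log2 change of 0.25 (SE 0.091, unadjusted p = 0.0211). The SNARE gene *Vamp1* had a log2 change of 0.18, and the list median was 0.017.

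Outside these lists, *Kif5a*, a neuronal kinesin, was at 97.3 and 100.5 CPM in control and 119 and 122 CPM in HuD (log2 change 0.29, SE 0.087, unadjusted p = 0.0087) and *Rufy3*, which acts in axon formation, at 183 and 193 CPM in control and 234 and 258 CPM in HuD (log2 change 0.39, SE 0.12, unadjusted p = 0.00954), both named after their values were seen. Of 16 genes of motor neuron and cholinergic identity, 0 were higher and 2 lower, against 1.78% and 0.865% of all genes. *Slit3*, a secreted axon guidance ligand, was at 450.0 and 449 CPM in control and 379 and 374 CPM in HuD (log2 change -0.26, SE 0.084, unadjusted p = 0.0132), and *Gfra1*, the GDNF coreceptor, at 44.9 and 48.4 CPM in control and 40.6 and 39.3 CPM in HuD (log2 change -0.23, SE 0.10, unadjusted p = 0.0486). The HuD libraries were the lower pair in both.

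Large housekeeping classes had no called gene but lay mostly below 0 in total RNA, where 51.3% of all genes were below 0. Of 82 cytosolic ribosomal protein genes, 0 were called and 74 were below 0 (median -0.049). Of 91 nuclear genes of oxidative phosphorylation, 0 were called and 80 were below 0 (median -0.081), and of 37 proteasome subunit genes 0 were called and 33 were below 0 (median -0.088). Within replicate 1 and replicate 2 these medians went from -0.120 to 0.020 for ribosomal proteins, -0.140 to -0.030 for oxidative phosphorylation and -0.096 to -0.092 for the proteasome. For ribosomal proteins the replicates thus differed in sign.

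Of 24 cholesterol synthesis genes, 20 were below 0 (median -0.090), against 51.3% of all genes. Only *Mvk*, mevalonate kinase, was called, lower at 19.5 and 21.5 CPM in control and 16.5 and 18.2 CPM in HuD (log2 change -0.24, SE 0.10, unadjusted p = 0.045). In the list of hypoxia and glycolysis 3 of 36 were higher (*Eno2*, *Vegfa*, *Ero1l*) and 0 lower, against 1.78% and 0.865% of all genes. In the NRF2 antioxidant list 2 of 32 were lower, against 0.865% of all genes. They were the UDP-glucose dehydrogenase gene *Ugdh* (-0.24) and the transaldolase gene *Taldo1* (-0.17). Of 67 translation initiation and elongation factors only *Eif2d* was called, lower at 29.3 and 26.7 CPM in control and 23.2 and 24.7 CPM in HuD. Of 326 zinc finger genes with a Zfp symbol, 8 were higher and 0 lower, near the 1.78% and 0.865% of all genes, and 212 were above 0, against 48.7% of all genes (median 0.041). Lists with 0 called genes were stem and progenitor genes (19 tested), interferon response (35), AU-rich element and decay factors (76), mitochondrial ribosomal proteins (76) and Hox genes (25). Those with 1 called gene were extracellular matrix and adhesion (41, *Col12a1* higher), p53 targets (25, *Sesn2* higher), histones (18, *Hist1h1d* higher), axon guidance (46, *Slit3* lower), tubulins (15, *Tubb6* lower), immediate early genes and Myc (37, *Atf3* higher) and mitochondrially encoded mRNAs (7, *mt-Nd6*, high in a single HuD library). Of 64 ion channel genes *Clcn2* was higher and *Chrna5* lower.

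Of 16 genes chosen among those that the study discusses by name, 0 were called (2 with the replicate block), with log2 changes from -0.19 to 0.21. The choice left out other genes the study names. Among them are *Neat1* and *Malat1*, which it lists as HuD-bound lincRNAs. Both were higher here by the unadjusted rule, *Malat1* in a single HuD library. Of all genes 2.64% were called in either direction (6.16% with the replicate block).

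HuD binding sites had been mapped in NSC-34 cells by CRAC, which reads crosslinked RNA fragments and their deletions. By the labels, the CRAC cells, HuD and control alike, had tetracycline at 10 μg/ml for 24 h. The results text of the study instead gives doxycycline at 2 μg/ml for 48 h for CRAC. By the labels, sites and RNA levels thus come from unlike inductions. Of 1282 mRNAs with a site, 18 were higher and 16 lower in total RNA, against 1.78% and 0.865% of all genes. The median log2 change was -0.035, and 825 of the 1282 were below 0, against 51.3% of all genes. Both HuD libraries lay below both controls in 255 targets and above them in 112, against 16.7% and 15.2% of all genes. Without the library HuD replicate 1 the median was -0.004. All of these targets are protein coding, while all genes include noncoding RNAs and pseudogenes. Of the 12947 protein coding genes tested, 157 were higher, 122 lower and 6980 below 0, with a median of -0.011. Both HuD libraries lay below both controls in 2310 of the protein coding genes and above them in 1785. The 6 targets with the smallest p-values in each direction are shown with the 7-base motif of the deposited site in capitals, as RNA 5′ to 3′ on GRCm38, because they join a mapped site to a measured level. All of their 15 windows lie in 3′UTRs, hold UUU and had 0 reads in the control cells of the pooled CRAC table. The study had chosen sites by a sequence score built from its own CRAC data and had penalised locations with control reads. The UUU and the lack of control reads thus follow in part from that choice. Most mRNA sites of the study lay in 3′UTRs. The targets that were higher were these, with 1 window each shown.
Extl1, chr4:134356828-134356856, minus strand: agauccaccugACUUUUGcuucccagggu
Cdc37l1, chr19:29016412-29016440, plus strand: gcacaacacaaUGUUUACaagacugguug
Mllt11, chr3:95219896-95219924, minus strand: cuagaucauagGAUUUCCucccgucagcc
Zfp945, chr17:22850020-22850048, minus strand: ucagucuuucaGCUUUGCucaaacuuuau
Aldh1l2, chr10:83487615-83487643, minus strand: uugagauaucaGCUUUAUaguacguuuuc
Vegfa, chr17:46017166-46017194, minus strand: uuguuaucauuUAUUUAUuggugcuacug
The targets that were lower were these.
Rell1, chr5:63911045-63911073, minus strand: auguuuuauacAGUUUCUaucaugaaguc
Msrb3, chr10:120781917-120781945, minus strand: guuucccuuuaACUUUUAcuguuuuguuu
Tpm4, chr8:72151955-72151983, plus strand: ucaugaccaaaUAUUUUGuguuagacaag
Srebf1, chr11:60199650-60199678, minus strand: guacuacuuugACUUUUGcaaacuuuauu
Mob1a, chr6:83340673-83340701, plus strand: cuaaaucccauCGUUUAGagcuucuguuu
Dazap2, chr15:100619933-100619961, plus strand: uuagcugucugCCUUUUCcuucccauccu

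The read depths at the sites of higher and lower targets overlapped. The higher targets had 6 (*Zfp945*) to 142 (*Mllt11*) reads at the windows shown, and the lower ones 6 (*Msrb3*) to 37 (*Tpm4*). *Vegfa*, the vascular endothelial growth factor, whose motif is the AU-rich stretch UAUUUAU, was at 118 and 124 CPM in control and 140.4 and 163 CPM in HuD (log2 change 0.32, SE 0.10, unadjusted p = 0.0132). *Mllt11*, a neuronal cofactor, was at 105 and 106 CPM in control and 123 and 137 CPM in HuD (log2 change 0.30, SE 0.089, unadjusted p = 0.00783). At the window of *Cdc37l1* each of the 25 reads carried a deletion, and its mRNA was at 49.1 and 49.4 CPM in control and 59.6 and 64.9 CPM in HuD. These 3 mRNAs were higher in both HuD libraries than in either control.

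Of the lower targets, *Tpm4*, a tropomyosin of the actin cytoskeleton, was at 164 and 165 CPM in control and 134 and 144 CPM in HuD (log2 change -0.24, SE 0.078, unadjusted p = 0.0125). *Srebf1*, the transcription factor of lipid synthesis, was at 179.6 and 201 CPM in control and 161 and 155 CPM in HuD (log2 change -0.27, SE 0.088, unadjusted p = 0.013). *Msrb3*, a methionine sulfoxide reductase, was at 70.2 and 72.3 CPM in control and 60.8 and 59 CPM in HuD (log2 change -0.25, SE 0.078, unadjusted p = 0.0102). In each of them the HuD libraries were the lower pair. *Mob1a*, a Hippo pathway adaptor, and *Dazap2* had log2 changes of -0.28 and -0.22. *Zfp945* and *Aldh1l2*, higher, had 0.31 and 0.25.

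The same contrast had been made in polysomal RNA of these cells (2 libraries a group) and in 3′ end libraries (3 a group). In polysomal RNA all 27 genes of the ATF4 arm were again above 0, with a median of 0.240, and 14 were higher at an unadjusted p under 0.05, where 2.29% of all genes were. Of the 76 cell cycle genes 67 were below 0 with a median of -0.165, and 11 were lower, where 1.89% of all genes were. Total and polysomal RNA came from sucrose gradients of the same protocol with the same replicate numbers, and the sources used here do not say whether from the same cultures.

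In the 3′ end libraries the cell cycle genes also lay mostly below control, 55 of 62 below 0 with a median of -0.249. Of these, 5 were lower and 1 higher at an unadjusted p under 0.05, where 3.01% and 2.82% of all genes were. The ATF4 arm had no common sign there, with 11 of 24 genes above 0, against 50.0% of all genes, a median of -0.032 and 0 called in either direction. *Trib3* had -0.036 there and *Nupr1* 0.17. In these libraries samples of the same number deviated together, though the study names no pairing, and the replicate block moved the calls. With the block 8.72% of all genes were higher and 10.1% lower at an unadjusted p under 0.05, and 102 and 120 of 9399 genes passed adjustment, against 2 and 3 without it. In the cell cycle list 33 of 62 were then lower and 1 higher, and in the ATF4 arm 3 of 24 were higher and 4 lower. Past adjustment, 8 cell cycle genes were lower and 1 higher with the block, where 1.28% and 1.09% of all genes were. Without the block 0 were lower and 1 was higher past adjustment, against the sign of most of the list. In the ATF4 arm 1 gene was lower and 0 higher past adjustment with the block, and 0 in either direction without it.

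Of the neuronal lists in the 3′ end libraries, 6 of 28 synaptic genes were higher and 0 lower (12 and 1 with the block). Of 24 differentiation genes 1 was higher and 0 lower (5 and 3 with the block). Of all genes 2.82% were higher and 3.01% lower (8.72% and 10.1% with the block). Past adjustment there were 0 synaptic genes in either fit. In the differentiation list 1 gene, higher, passed with the block and 0 without it. Of the neuronal genes named above as higher in total RNA, the log2 changes at an unadjusted p under 0.05 were 0.60 for *Eno2*, 0.47 for *Mapt*, 0.57 for *Mllt11*, 0.59 for *Sv2a* and 1.13 for *Rufy3*. *Rab3a*, *Vamp1* and *Kif5a* had 0.28, 0.49 and 0.38 and did not pass (unadjusted p = 0.351, 0.283 and 0.2, edgeR). *Rufy3* passed adjustment there (adjusted p = 0.0314, edgeR). *Nefl*, *Slit3* and *Gfra1*, lower in total RNA, are not followed here, so these values cover 1 direction only. The list of motor neuron and cholinergic identity had a median of -0.027 in total RNA. In the 3′ end libraries its median was 0.17 over 9 genes.

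*Elavl4* had a negative log2 change in the 3′ end libraries. It was at 81.8, 37.1 and 78.4 CPM in control and 56.8, 31 and 51.2 CPM in HuD, lower in each of the 3 same-numbered pairs although the groups overlapped. The log2 change was -0.49 (unadjusted p = 0.129, edgeR), which did not pass the threshold. With the replicate block it was -0.47 and passed adjustment (adjusted p = 0.0269, edgeR), opposite in sign to total RNA. The 3′ end counts are of reads that start near known polyadenylation sites of the mouse genome. The transgene was a human coding sequence in a vector. Counts of *Elavl4* in total RNA and in the 3′ end libraries may therefore not cover the same transcripts, which was not tested.

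Of genes measured in both, the sign was the same in 55.8% of 9399. It was the same in 62.2% of 119 genes that were higher in total RNA, against 56.6% of all genes above 0, and in 80.5% of 87 genes that were lower, against 55.1% of all below 0. *Skp2* and *Msrb3*, lower in total RNA, had -0.70 and -0.62 in the 3′ end libraries. The housekeeping classes did not all keep their sign. Their medians in polysomal RNA were -0.009 for ribosomal proteins, 0.044 for oxidative phosphorylation and -0.082 for the proteasome. In the 3′ end libraries these medians were 0.030, -0.004 and 0.027.

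**Figure D4:**
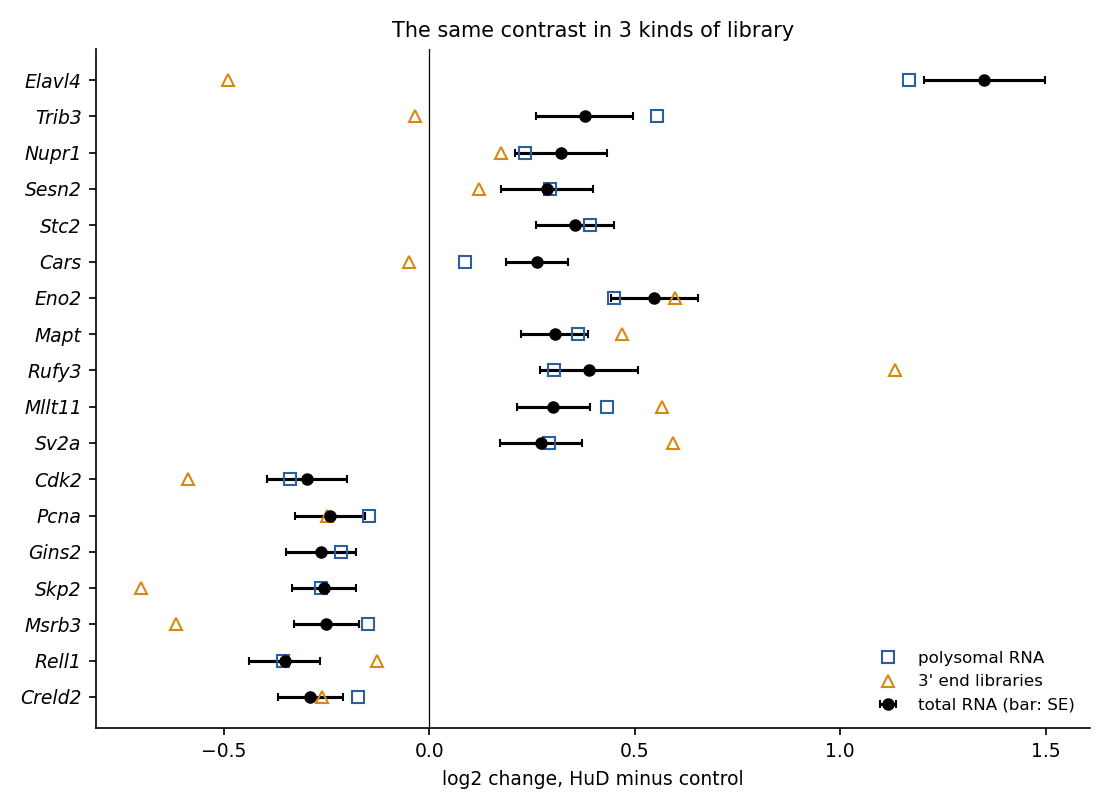
Log2 change (HuD minus control) of 18 genes in total RNA (black, with SE), polysomal RNA (blue squares) and 3′ end libraries (orange triangles, where measured). *Elavl4* is at 1.35 in total RNA, which can hold transgene reads, and -0.49 in the 3′ end libraries. The neuronal genes *Eno2* to *Sv2a* are right of 0 in all 3 and *Cdk2* to *Creld2* left of 0.

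HuD replicate 1 differed from the other 3 total RNA libraries in a small set of mostly noncoding RNAs. Of genes with a mean of at least 10 CPM, 8 were more than 3 times higher in it than in every other library, 6 of them not protein coding, and no such gene was found for the other 3 libraries. The nuclear lincRNA *Malat1* was at 130.3 and 74.9 CPM in control and 587 and 94.5 CPM in HuD. *mt-Nd6*, the mitochondrial subunit on the opposite strand from the rest, was at 68.3 and 30.9 CPM in control and 369 and 45.6 CPM in HuD. *Rn7sk*, a nuclear RNA of transcription control, was at 19 and 2.09 CPM in control and 96.2 and 1.65 CPM in HuD. For these 3 RNAs the second HuD library was within or below the range of the controls.

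Summed over 471 lincRNAs, the level was 4945 and 2773 CPM in the control libraries against 15390 and 3017 CPM in the HuD libraries. Control replicate 1 was the next highest in each of these RNAs. Without HuD replicate 1 the log2 changes of *Malat1* and *mt-Nd6* were -0.12 and -0.12. *Neat1*, another nuclear lincRNA, was higher in both HuD libraries than in either control, at 31.3 and 24.3 CPM in control and 40.5 and 35.5 CPM in HuD. The part of this library in the other results was not tested beyond leaving it out.

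**Figure D5:**
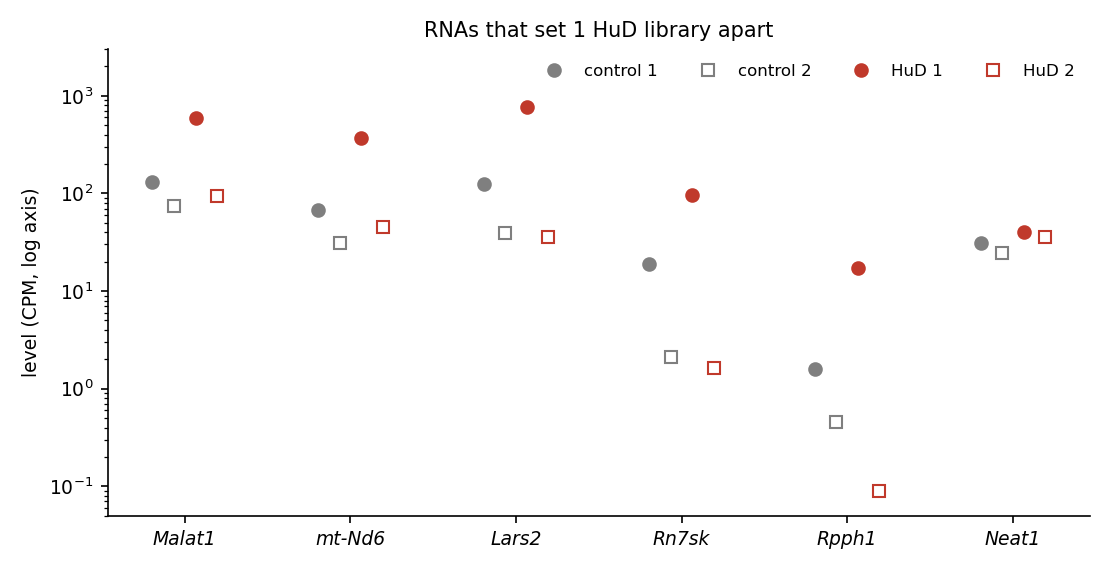
Levels (CPM, log axis) of 6 RNAs in each total RNA library. HuD replicate 1 (filled red) is the highest for *Malat1*, *mt-Nd6*, *Lars2*, *Rn7sk* and *Rpph1* by more than 3 times, and control replicate 1 comes next. For *Neat1* both HuD libraries lie above both controls.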

How the data were processed

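Total and polysomal RNA (4 libraries each) and 3′ ends (6 libraries) were measured in control and HuD NSC-34 cells, and HuD binding by CRAC. The authors deposited raw counts per gene, made with STAR 2.5.3a on GRCm38.p4 with Gencode M6 from stranded libraries, and replicates were not pooled. The authors had left genes out of this table by a rule not given in the sources used here. The 3′ end counts deposited by the authors are reads that start near known polyadenylation sites. For CRAC, mapped with TopHat2 2.0.14, the authors deposited a pooled table with the coverage signal and deletion counts per site, the score of a positional weight matrix and a p-value.

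Counts were fitted with edgeR 4.0.16 (R 4.3.3, quasi-likelihood test, TMM, filterByExpr) over the 8 total and polysomal libraries by group, and 14906 genes were tested. CPM are counts divided by the TMM-scaled total. P-values were adjusted by Benjamini-Hochberg over all genes tested, and "higher" and "lower" mean an unadjusted p under 0.05. The 3′ end counts were fitted apart, 3 against 3. There each same-numbered pair of libraries deviated together (correlations of 0.42, 0.676 and 0.527 over 9399 genes), so the replicate block, added after seeing the data, is given beside those results. Of the pairs with unlike numbers, control 3 with HuD 1 had 0.348 and control 1 with HuD 3 had 0.07. The rest had -0.312 to -0.627. DESeq2 1.42.0, other scalings and filters, a replicate block and leaving out each library were the alternatives. Replicate numbers come from the labels. Deviations of libraries with the same number correlated in each of the 6 pairs of groups, from 0.252 to 0.537 and by 0.45 between the total RNA groups, but each comparison holds only 2 pairs and the study names no pairing. Total counts of the 4 libraries were 29041469 to 35836234, and replicates differed beyond sampling noise. The fits were tested on simulated data with 200 changed genes. The simulated data held no replicate effect, so the choice of a replicate block could not be tested by them. Figures and summaries used Python 3.11.15.

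Named genes were the ELAV family (a), the 12 higher and 12 lower genes with the smallest p-values at 1 CPM or more and without overlap between groups (b), those with the largest changes at 10 CPM or more (c), up to 4 members of each gene list (d), 16 genes discussed by the study, given as counts (e), and HuD targets with the smallest p-values (f). Genes outside this rule were chosen after their values were seen. The members, lists and motifs were chosen with earlier results of these data known. Promoters were RefSeq windows matched by symbol. Columns of per-site p-values were used only to choose an alternative set of targets.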

Additional observations from a re-analysis of the deposited data

How the results depend on the processing

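The count of genes past adjustment was 0 with RLE or upper quartile scaling, without a filter on low counts, with a mean of at least 1 CPM and with the replicate block, and 1 with DESeq2, with edgeR's likelihood ratio test and in the 4 total RNA libraries alone. The replicate block gave 533 higher and 385 lower genes at an unadjusted p under 0.05, against 265 and 129 without it, and 856 and 575 in the 4 libraries alone, where 127 genes passed adjustment. DESeq2 gave 120 and 55, and the 4 libraries without a block gave 367 and 194. The replicate block without HuD replicate 1, added after seeing the data, gave 2 genes past adjustment. Leaving out each library in turn gave 161 to 209 higher and 57 to 94 lower genes, the fewest without control replicate 2, and 0 past adjustment. With a library left out, the single library of its group is assumed to vary like the other groups.

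The log2 change of *Elavl4* was above 1 under each alternative, 1.2 to 1.52 with a library left out. Of the 97 named genes, the replicate block moved 5 past the unadjusted threshold and none out of it, DESeq2 took 18 out of it, and leaving out 1 library took 33 to 45 out of it. The median of the HuD targets was -0.0195 with upper quartile scaling, -0.0267 at a mean of at least 1 CPM, -0.0464 for targets with a window at p under 0.05 in the deposited table, and -0.0696 to 0.0066 with a library left out. The cause was not tested.

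With a library left out, these genes changed sign, in the ranges that follow. *Malat1* ranged from -0.12 to 2.52. The log2 change of *mt-Nd6* was between -0.12 and 2.90. For *Rn7sk* the values were -2.67 to 4.54. *Rpph1* ranged from -3.43 to 4.22. The log2 change of *Lars2* was between -1.19 and 3.34. For *Elavl1* the values were -0.15 to 0.022. *Elavl2* ranged from -0.079 to 0.11. The log2 change of *Hspa5* was between -0.21 and 0.073. For *Nefm* the values were -0.13 to 0.052. *Nefh* ranged from -0.059 to 0.023. The log2 change of *Map2* was between -0.0041 and 0.16. For *Isl1* the values were -0.24 to 0.024. *Chat* ranged from -0.22 to 0.054. The log2 change of *Slc18a3* was between -0.20 and 0.043. With the replicate block and without HuD replicate 1, *Elavl2* was at -0.14, *Lars2* at -0.36, *Slc18a3* at 0.0056, *Rn7sk* at -0.51 and *Rpph1* at -2.42. In the 3′ end libraries the replicate block raised the genes past adjustment from 5 to 222. With 2 libraries a group the spread within groups limits what the counts can show.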
